A study of Mus musculus with 2 samples.

Results

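Genes known for their activity in the olfactory mucosa, the sensory lining of the nose, were followed in RNA from brain tissue of mice with and without interleukin-18. The 8 genes were Bpifb4, Bpifb6, Bpifb3, Scgb1c1, Omp, Cnga2, Gng13 and Stoml3, 8 of the 20660 genes that could be named on the array. Each was found through the RefSeq accession of its probe, and each was read by 1 probe printed as 1 spot. The genes were chosen by their log2 differences between the same 2 arrays together with their known link to the mucosa, so these differences are descriptions and were not tested. The Il18-/- group was 1 RNA pool from 7 male C57BL/6 N mice carrying a null genotype of Il18, which encodes an inflammatory cytokine, and the Il18+/+ group was 1 pool from 7 male wild-type mice of the same background. All mice were 12 weeks old. On the tissue the descriptions differ: hippocampus in the sample labels, prefrontal cortex in the protocol for RNA purification and in a sentence of the design text. Each pool was read on a single one-colour Agilent array with the dye Cy3, so no difference has a replicate check, the number of arrays limits the precision, and p-values could not be computed.

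The olfactory mucosa holds sensory neurons, whose cilia carry odorant receptors, sustentacular cells that surround them, and Bowman glands that secrete the overlying mucus. An odorant receptor acts through a G protein and adenylyl cyclase, and the cyclic AMP that is formed opens a cyclic nucleotide-gated channel in the ciliary membrane. Many BPI fold proteins and secretoglobins, but not all, are secreted proteins of airway and nasal epithelia. In bulk tissue RNA such as this, fewer cells of a type and less RNA per cell cannot be told apart.

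Bpifb6, Bpifb3 and Bpifb4 follow each other without another protein-coding gene between them on chromosome 2 in the RefSeq annotation of GRCm38.p6. The bases before the transcript starts of Bpifb6 and Bpifb4 are shown because both genes read higher in Il18-/-, those of Scgb1c1 because it had the highest difference of all measured genes, and those of Cnga2 because it differed by less than its scanner error and its window holds a sequence known from olfactory neurons. All are 250 bases on the plus strand from RefSeq's GRCm38.p6, at chr2:153900138-153900387 for Bpifb6, chr2:153940612-153940861 for Bpifb4, chr7:140845315-140845564 for Scgb1c1 and chrX:71991599-71991848 for Cnga2. Capitals mark CCCNNGGG, the core that Olf1/EBF factors bind, and TAATTA, a core of homeodomain factors such as Lhx2. Both cores read the same on either strand. The Bpifb4 window lies inside the gene's annotated span, which starts further upstream for another transcript.
Bpifb6: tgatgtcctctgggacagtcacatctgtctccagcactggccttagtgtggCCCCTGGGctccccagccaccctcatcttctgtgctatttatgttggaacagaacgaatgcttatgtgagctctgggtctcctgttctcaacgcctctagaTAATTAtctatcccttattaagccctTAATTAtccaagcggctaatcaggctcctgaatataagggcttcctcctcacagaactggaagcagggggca
Bpifb4: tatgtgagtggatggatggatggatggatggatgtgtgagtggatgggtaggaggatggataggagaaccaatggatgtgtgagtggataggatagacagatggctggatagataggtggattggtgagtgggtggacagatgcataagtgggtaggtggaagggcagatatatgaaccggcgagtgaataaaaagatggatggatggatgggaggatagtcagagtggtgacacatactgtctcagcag
Scgb1c1: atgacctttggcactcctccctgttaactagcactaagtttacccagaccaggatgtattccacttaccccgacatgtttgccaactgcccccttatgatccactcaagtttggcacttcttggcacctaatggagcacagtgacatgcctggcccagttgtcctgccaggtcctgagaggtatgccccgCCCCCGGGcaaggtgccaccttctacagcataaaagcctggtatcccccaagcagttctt
Cnga2: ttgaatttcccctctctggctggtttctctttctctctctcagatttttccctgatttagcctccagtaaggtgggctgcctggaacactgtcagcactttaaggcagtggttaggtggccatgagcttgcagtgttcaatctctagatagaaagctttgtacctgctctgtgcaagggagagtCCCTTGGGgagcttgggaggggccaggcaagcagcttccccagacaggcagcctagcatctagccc
CCCNNGGG stood in 1 place in the windows of Bpifb6, Scgb1c1 and Cnga2 and was not in that of Bpifb4. TAATTA stood in 2 places in the window of Bpifb6 and in none of the other windows shown, and no matches overlapped. Of 32851 windows of 250 bases before a transcript start in the same table, 11.8% held CCCNNGGG and 4.84% held TAATTA. Of the 8 genes 7 had a window in the table, 5 of them held CCCNNGGG at 1 start or more, and 1 held TAATTA. These counts are of genes and the shares are of windows, so they are not alike. Bpifb3 and Gng13 had 2 windows each and held CCCNNGGG in only 1 of them. These matches describe the letters and do not show a binding site.

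Levels are given as the processed intensity and as log2 of that intensity relative to the 75th percentile of the array. Differences are log2 values of Il18-/- minus Il18+/+. A spot counted as measured on an array when the scanner software marked it as well above background, and the lowest such intensity was 15.6 for Il18-/- and 14.7 for Il18+/+. Of the 8 genes, 6 were measured on both arrays, Bpifb3 was measured in Il18-/- only, and Stoml3 was not well above background on either. Of the 6 measured on both, 4 read higher in Il18-/- by 1.5-fold or more, 3 of them by over 2-fold and over 10-fold too, and 0 read lower by 1.5-fold or more. With normexp background correction 0 reached 10-fold, and with no background subtraction 2 did. Over all 15738 named genes measured on both arrays, the shares were 1.68% higher by 1.5-fold, 0.648% by 2-fold and 0.0826% by 10-fold, and 2.57% lower by 1.5-fold. Since the genes were picked with these differences known, nothing is read from that contrast.

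**Figure D1:**
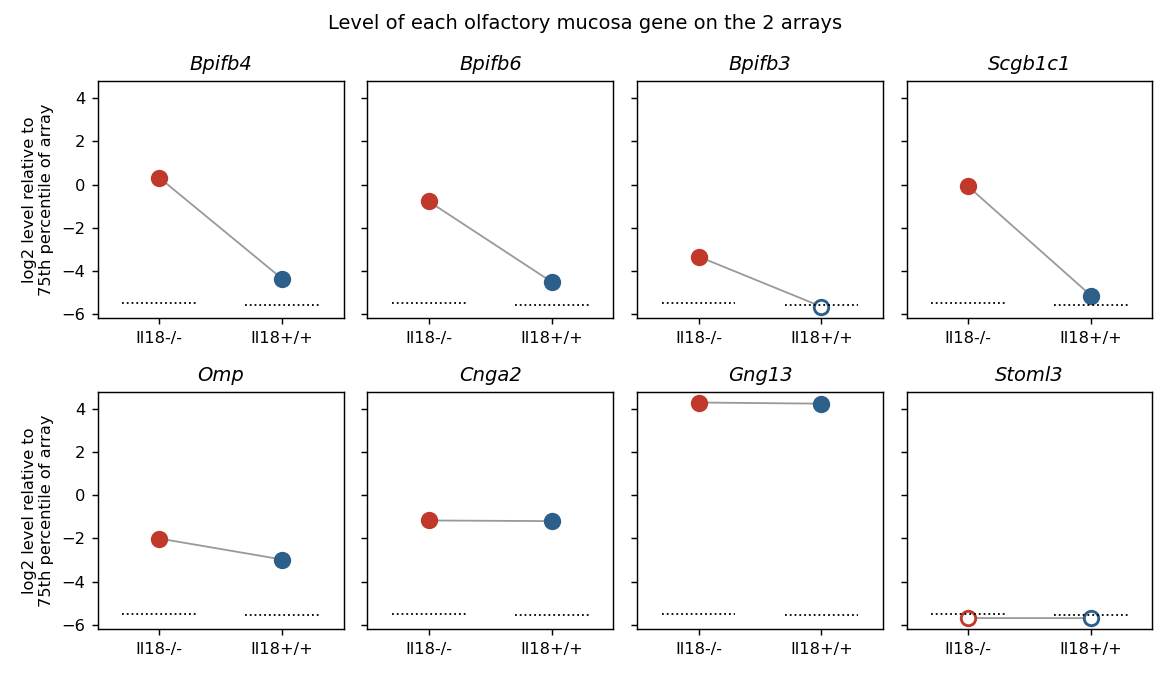
Level of each gene (log2 intensity relative to the 75th percentile of its array) in Il18-/- and in Il18+/+, 1 spot per array. Filled points were well above background, open points were not, and dotted lines mark the lowest level well above background on each array; Bpifb4, Bpifb6, Scgb1c1 and Omp read at least 1.5-fold higher in Il18-/-, and Cnga2 and Gng13 lie level.

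Bpifb4 encodes a secreted member of the BPI fold family, whose founding protein binds bacterial lipopolysaccharide. Its probe had an intensity of 881 in Il18-/- and 33.6 in Il18+/+, with errors of 88.2 in Il18-/- and 4.54 in Il18+/+ from the scanner software's own model of a spot. The levels were 0.32 in Il18-/- and -4.36 in Il18+/+, a difference of 4.68 with a scanner error of 0.24, or 25.7-fold. The Il18+/+ spot was dim but well above background, and the raw spot medians before any subtraction were 1020.5 in Il18-/- and 79 in Il18+/+ over a local background of 42 on both arrays. Bpifb4 ranked 2 among the 15738 measured genes by difference.

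Bpifb6, a neighbour of Bpifb4 in the same cluster and a member of the same family, moved the same way. Its intensity was 411 in Il18-/- and 30.3 in Il18+/+, with scanner errors of 41.3 in Il18-/- and 4.81 in Il18+/+. The levels were -0.78 in Il18-/- and -4.51 in Il18+/+, a difference of 3.73 with a scanner error of 0.27, or 13.3-fold, and the gene ranked 5. Bpifb3, which lies between them, had an intensity of 70.0 in Il18-/-, where it was well above background, and of 13.7 in Il18+/+, where it was not. Its raw spot medians before any subtraction were 103 in Il18-/- and 53.5 in Il18+/+, over a local background of 43 on both arrays. The processed Il18+/+ reading is only a bound, and with the 75th percentile scaling the level in Il18-/- was at least 4.67-fold higher. Spike-in scaling, which lowered every difference by 0.30, lowers this bound too. Such readings on 1 array only were seen for 1.05% of the 20660 named genes in Il18-/- and for 1.93% in Il18+/+.

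The other BPI fold family genes that could be read on both arrays did not share this shift. Bpifb4, Bpifb6 and Bpifb3 had been chosen with their differences known, so the contrast follows partly from that choice. Of 18 listed family genes 16 had a named probe, and 6 besides the genes above were measured on both arrays. None of these 6 was at least 1.5-fold higher, 1 was at least 1.5-fold lower, and their median difference was -0.08, against 0.01 over all measured genes. Lbp, which encodes the plasma protein that carries lipopolysaccharide, read -1.28 in Il18-/- and -0.25 in Il18+/+, or 2.03-fold lower. Bpifa3 differed by -0.51, Pltp, a phospholipid transfer protein gene, by -0.18 and Bpifc by 0.18. Bpifb5 and Bpifb9b, 2 further genes of the family, were below background on both arrays, as were Bpi, Bpifa1, Bpifa6 and Bpifb2. Bpifa2 was measured in Il18+/+ only, where it was at least 1.34-fold higher than in Il18-/-.

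Along chromosome 2 the measured genes on both sides had smaller differences. Before Bpifb6, Bpifb2 was below background on both arrays, Sun5 differed by -0.19 and Mapre1 by 0.08. After Bpifb4, Bpifa6 was below background, and Bpifa3, Bpifa5 and Bpifb1 differed by -0.51, 0.02 and 0.12. Cdk5rap1, whose annotated span runs over Bpifb5 and Bpifb9b, read -0.16 in Il18-/- and -0.70 in Il18+/+, a difference of 0.54. Bpifb5 and Bpifb9b left out, 15 genes from Commd7 to Cdk5rap1 had a named probe. Of these, only Bpifb6, Bpifb3 and Bpifb4 were at least 1.5-fold higher or had a bound above that in Il18-/-. Cdk5rap1, at 1.45-fold, lay just under the cut, and median scaling, which raised every difference by 0.06, takes it past 1.5-fold. Bpifb2, Bpifa6, Bpifa1, Bpifb5 and Bpifb9b were below background on both arrays and could not be judged.

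Scgb1c1 encodes a secretoglobin known from the mucus-secreting cells of the olfactory lining. Its intensity was 665 in Il18-/- and 19.6 in Il18+/+, with scanner errors of 66.6 in Il18-/- and 3.77 in Il18+/+. The levels were -0.09 in Il18-/- and -5.14 in Il18+/+, a difference of 5.05 with a scanner error of 0.31, or 33.2-fold, which ranked 1 among all measured genes. The Il18+/+ intensity was close to the lowest that counted as well above background, 14.7. Of 3 other measured secretoglobins none was at least 1.5-fold higher or lower. Scgb1a1, the club cell secretory protein gene, differed by -0.01, Scgb3a1 by 0.18 and Scgb2b2 by -0.40. The genes next to Scgb1c1 on chromosome 7 differed little, with Urah at 0.33 and Odf3 at -0.04.

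**Figure D2:**
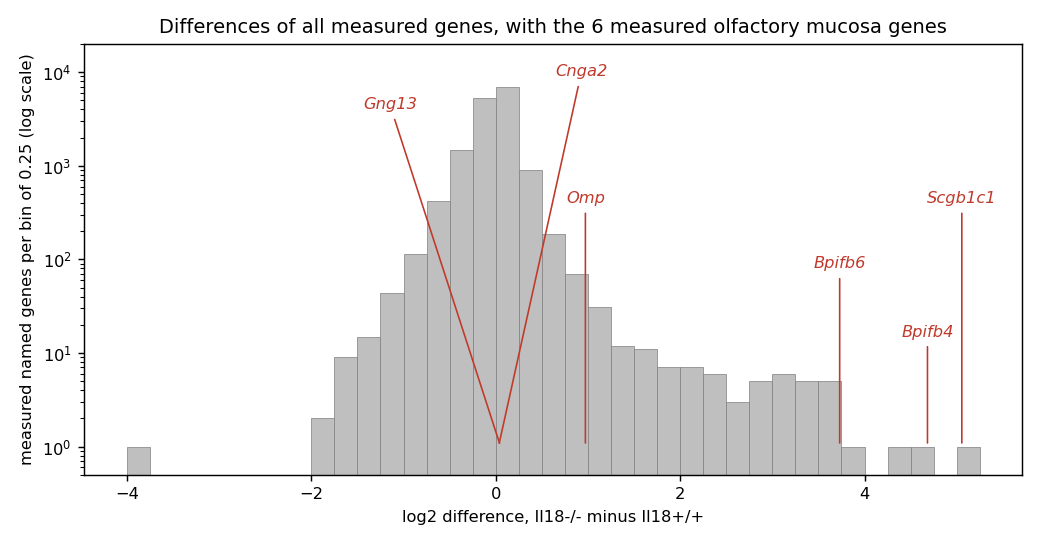
Number of measured named genes (log scale) in bins of 0.25 of the log2 difference, Il18-/- minus Il18+/+, with lines from the 6 measured olfactory mucosa genes to their differences. Scgb1c1, Bpifb4 and Bpifb6 stand at 5.05, 4.68 and 3.73 in the thin right tail, Omp at 0.97, and Cnga2 and Gng13 in the central bins.

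The place of each spot on the glass was examined because single spots can share a reading with their surroundings. For each probe the 18 nearest spots were taken from the recorded positions. Around Bpifb4 they had a median difference of -0.02 and ranged from -0.70 to 1.35, and around Bpifb6 they had a median of -0.07 and ranged from -1.14 to 0.25. Neither probe lay in a region that read higher in Il18-/-. Around Bpifb3 the median was -0.14, with a range from -1.45 to 1.13, and around Omp it was 0.03, with a range from -1.36 to 0.70.

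Scgb1c1 lay beside a patch of spots that read higher in Il18-/-. The median of its 18 nearest spots was -0.05, but 4 of them were at least 2-fold higher, at places 11, 12, 13 and 17 in order of distance, with differences of 2.61, 7.88, 1.18 and 3.16, and 2 of these 4 were well above background on both arrays. Counting spots of every kind, controls and outlier-flagged spots included, 8 of the 50 nearest read higher in Il18-/- by 2-fold or more and were well above background there, against a mean of 0.606 for 50 spots over the whole array. The same count was 1 for Bpifb4, 0 for Bpifb6, Bpifb3, Omp and Gng13, 1 for Cnga2 and 3 for Stoml3. The local background around Scgb1c1 had a median intensity of 45 in Il18-/- and 43 in Il18+/+, where the medians over the arrays were 42 in Il18-/- and 43 in Il18+/+. Of the 8 probes, that of Scgb1c1 alone was at least 1.5-fold different with 2 or more of its 18 nearest spots at least 2-fold different the same way, a state shared by 1.05% of the spots well above background on at least 1 array and by 30.4% of such spots that were at least 2-fold higher in Il18-/-. What part the patch had in the Scgb1c1 reading was not tested. Without Scgb1c1, 3 of 5 measured genes were at least 1.5-fold higher. Of the 13 genes at least 10-fold higher, which were 0.0826% of all measured genes, 4 had a probe in such a patch.

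**Figure D3:**
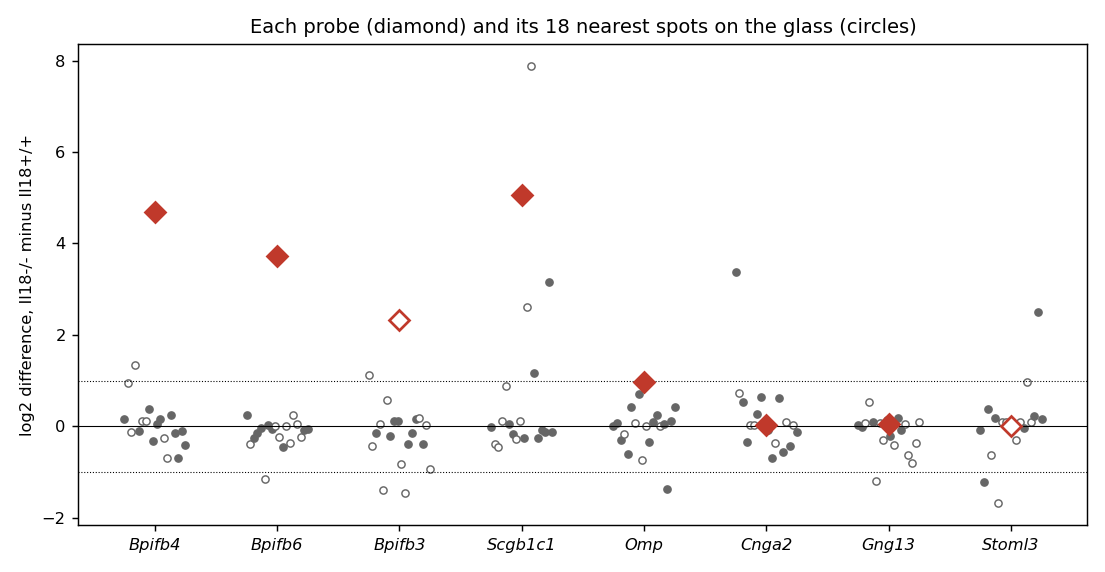
Log2 difference (Il18-/- minus Il18+/+) of each probe, as a diamond, and of its 18 nearest spots on the glass, as circles ordered by distance from left to right. Filled symbols were well above background on both arrays and dotted lines mark 2-fold; the spots around Bpifb4 and Bpifb6 lie between -1.14 and 1.35, whereas 4 spots near Scgb1c1 lie between 1.18 and 7.88.

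Omp encodes olfactory marker protein, the classical marker of mature olfactory sensory neurons. Its intensity was 176 in Il18-/- and 87.9 in Il18+/+, and the levels were -2.00 in Il18-/- and -2.98 in Il18+/+, a difference of 0.97 with a scanner error of 0.21, or 1.96-fold. Both readings were well above background. Omp lies inside the span of Capn5, a calpain protease gene, in the RefSeq annotation, and the Capn5 probe differed by -0.03. B3gnt6, on the other side, differed by 0.33.

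The channel and G protein genes differed little between the arrays, and Stoml3 could not be read. Cnga2 encodes the main subunit of the olfactory cyclic nucleotide-gated channel and had an intensity of 314 in Il18-/- and 302 in Il18+/+, a difference of 0.03. Gng13 encodes a G protein gamma subunit of olfactory and taste cells that is also made in brain neurons, and its intensity was 13873 in Il18-/- and 13089 in Il18+/+, a difference of 0.05. Both differences were smaller than their scanner errors of 0.21 and 0.20, and their signs turned under other scalings. Stoml3, a stomatin-like protein gene of olfactory cilia and touch neurons, had intensities of 13.7 in Il18-/- and 13.4 in Il18+/+, under the lowest intensity marked well above background on each array, so no fold is given.

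Repeated spots of 1 probe show how far a reading wanders within these arrays. Over 193 probes printed 10 times, the standard deviation of the difference had a median of 0.07 and a 95th percentile of 0.23. In the 48 dimmest of them the 95th percentile was 0.42. The differences of Bpifb4, Bpifb6, Scgb1c1 and Omp were larger than these values and those of Cnga2 and Gng13 were not. The genes were chosen with these differences known, and a standard deviation is not a limit for a difference, so nothing is read from that contrast. The spread of repeated spots covers printing and reading of spots and says nothing about mice, pools or labelling. Setting the spike-in probes equal lowered every difference by 0.30. With normexp background correction the differences were 3.31 for Bpifb4, 2.20 for Bpifb6 and 3.10 for Scgb1c1.

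**Figure D4:**
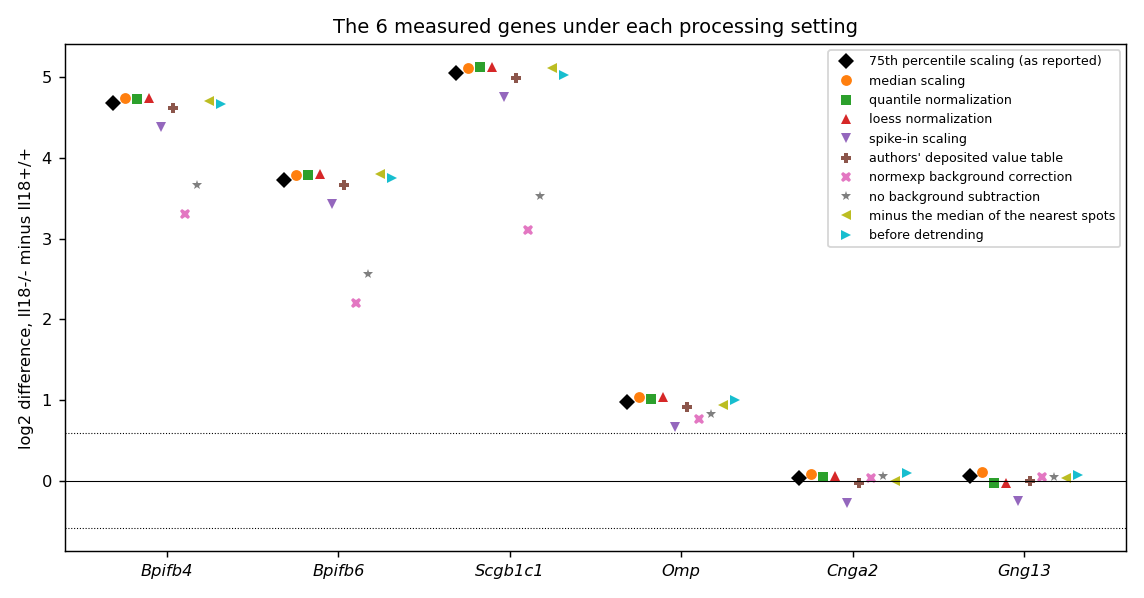
Log2 difference (Il18-/- minus Il18+/+) of the 6 genes measured on both arrays under each processing setting, with dotted lines at 1.5-fold. Bpifb4 lay between 3.31 and 4.74, Bpifb6 between 2.20 and 3.80, Scgb1c1 between 3.10 and 5.13, Omp between 0.67 and 1.04, and Cnga2 and Gng13 on both sides of 0.

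Other genes of the pathway were read from lists drawn up by function. Of 22 genes of olfactory signal transduction 20 were measured, 2 were at least 1.5-fold higher, 1 was at least 1.5-fold lower, and the median difference was 0.00. With normexp 1 was higher and 0 were lower. The list held Omp, Cnga2, Gng13 and Stoml3, which had been chosen with their differences known. Without them 17 were measured, 1 was higher, 1 was lower and the median was -0.07. Over all measured genes 1.68% read higher and 2.57% lower by 1.5-fold or more. Besides Omp the higher gene was Ano2, which encodes the calcium-activated chloride channel of olfactory cilia, at -2.83 in Il18-/- and -3.72 in Il18+/+, or 1.85-fold. The lower gene was Cnga3, a channel subunit of cone photoreceptors and of a small class of olfactory neurons, at -3.06 in Il18-/- and -2.33 in Il18+/+, or 1.65-fold lower. Cnga4 and Cngb1, the partner subunits of Cnga2, differed by -0.07 and -0.13. Adcy3, the adenylyl cyclase of olfactory cilia, differed by -0.17 and Gnal, which encodes the olfactory G protein alpha subunit, by 0.08. Rtp2, which encodes a transporter of odorant receptors to the cell surface, differed by -0.43, and Car2, a carbonic anhydrase gene, by -0.23. Rtp1 was below background on both arrays.

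The list of sustentacular cell and Bowman gland genes held Bpifb4, Bpifb6, Bpifb3 and Scgb1c1, which had been chosen with their differences known. Its counts rest partly on that choice. Of 28 listed genes with a named probe 17 were measured. Of these, 8 read higher in Il18-/- by 1.5-fold or more, 1 read lower, and the median difference was 0.41. Over all measured genes 1.68% read higher and 2.57% lower by as much. For the list the higher count was 5 and the median 0.22 with normexp, 6 and 0.29 with no background subtraction, and 6 and 0.11 with spike-in scaling. Bpifb4, Bpifb6 and Scgb1c1 were 3 of the 8. Another pair was Mup4 and Mup5, at 3.28 and 2.55, which belong to the family of major urinary protein genes, also active in liver. Whether their probes tell the family members apart was not examined. Aldh1a7, an aldehyde dehydrogenase gene, was 1.87-fold higher at dim levels of -4.32 in Il18-/- and -5.22 in Il18+/+. Muc5b, which encodes a gel-forming mucin of the airway, was 1.81-fold higher, at -2.46 in Il18-/- and -3.32 in Il18+/+. Ugt2a1, which encodes an odorant-conjugating enzyme of the olfactory mucosa, was 1.63-fold higher, at -3.04 in Il18-/- and -3.75 in Il18+/+. Gstm2 was the lower gene, at -0.63. Cyp2g1, an olfactory cytochrome P450 gene, was well above background in Il18-/- only, where it was at least 2.02-fold higher at an intensity of 30.3, and Fmo2 was measured in Il18+/+ only, at least 1.24-fold higher than in Il18-/-. Without the Mup genes and the genes described above as the 8 olfactory mucosa genes, 12 genes were measured, 3 were higher, 1 was lower and the median was -0.09.

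Odorant carrier and receptor genes were often below background. Of the odorant binding and lipocalin genes, Obp1a was measured at -1.02 in Il18-/- and -0.79 in Il18+/+, a difference of -0.23, and Obp2a, Lcn3, Lcn4 and Lcn11 were below background on both arrays. Of 1071 odorant receptor genes with a named probe, 859 were below background on both arrays, a state of 20.8% of all named genes, and 167 were measured, of which 3 were at least 1.5-fold higher and 12 at least 1.5-fold lower, with a median of -0.07. These counts were 5 higher and 8 lower with loess, 1 and 35 with spike-in scaling, 0 and 0 with normexp, and 1 and 0 with no background subtraction. The widest differences among these were those of Olfr974 at -1.13, Olfr123 at -0.94 and Olfr339 at 0.93, and the Olfr339 probe lay in a patch of spots that differed the same way. A further 15 were well above background in Il18-/- only and 30 in Il18+/+ only. The largest bound was that of Olfr1019, at least 16.3-fold higher in Il18-/-, and its probe also lay in such a patch. Vomeronasal receptor genes showed 1 higher and 4 lower among 44 measured, with a median of -0.04, but 5 higher and 1 lower with quantile normalization and with loess, 3 and 2 with median scaling, 0 and 13 with spike-in scaling and 0 and 0 with normexp or no background subtraction. No direction is given for either receptor family.

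Other sources of olfactory transcripts were read by their own lists. Of 21 genes of olfactory neuron development, all measured, 2 were at least 1.5-fold higher and the median was -0.03. These were Gng8, at 0.64 in Il18-/- and -1.56 in Il18+/+, and Nhlh2, 1.75-fold higher, and both also stand in the medial habenula list. Neurog1, which acts in neuron precursors, differed by 0.10, Ebf1, whose product binds the CCCNNGGG core, by -0.28 and Nqo1, a quinone reductase gene, by -0.26. Of 15 measured olfactory bulb genes and 9 of olfactory ensheathing glia, none was at least 1.5-fold different, with medians of 0.06 and 0.00. The bulb gene Eomes, a marker of its projection neurons, differed by 0.46, Trh by 0.49 and Slc17a7 by -0.43. Of 11 measured genes of respiratory epithelium 1 was higher, Krt15, a basal cell keratin gene, 2.10-fold at dim levels, and the median was 0.18. The 7 measured taste cell genes had a median of -0.19. Among 4 measured stomatin family genes the differences ran from 0.00 to 0.05, and among 7 measured genes of gated channels 0 were higher and 1, Cnga3, was lower.

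**Figure D5:**
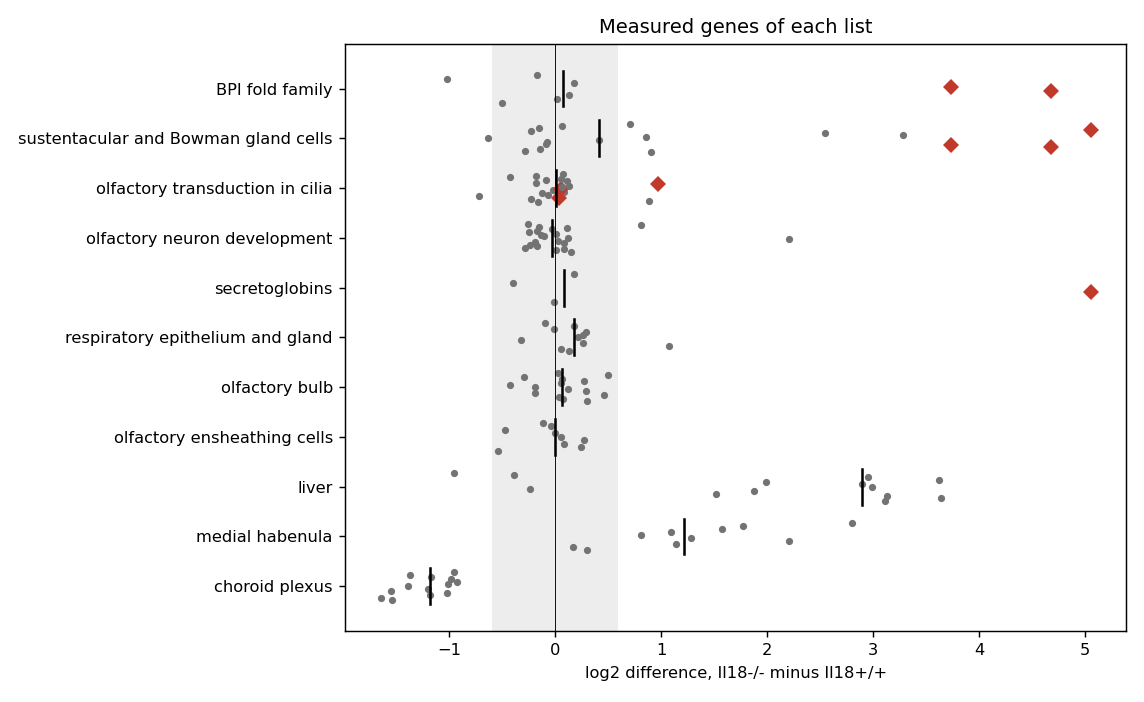
Log2 difference (Il18-/- minus Il18+/+) of each gene measured on both arrays in 11 of the gene lists, with a black bar at the median of each list. Red diamonds are the olfactory mucosa genes described above, circles the other genes, and the grey band spans less than 1.5-fold; the transduction, bulb and ensheathing lists centre near 0, whereas liver and habenula genes lie to the right and choroid plexus genes to the left.

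Genes of other tissues also differed between the pools. Of 13 measured liver genes 10 read higher in Il18-/- by 1.5-fold or more and 1, Ttr, read lower, with a median of 2.90, and 2 more were well above background in Il18-/- only. Their summed intensity without Ttr and Trf, which brain tissue also makes, was 5503 in Il18-/- and 725 in Il18+/+. Of 10 measured medial habenula genes 8 were higher, with a median of 1.21 and summed intensities of 7144 in Il18-/- and 2406 in Il18+/+ over 13 genes. All 13 choroid plexus genes were lower, with a median of -1.18 and summed intensities of 137302 in Il18-/- and 267469 in Il18+/+. None of the measured genes of these 3 lists had a probe in a patch of differing spots. Their part in the readings of the olfactory mucosa genes was not tested. All 15 hippocampal and all 13 frontal cortex genes were measured, with medians of 0.16 and -0.15. Of all 20660 named genes 15738 were measured on both arrays. Some of the listed genes were dim, such as the hippocampal gene Iyd, at intensities of 30.4 in Il18-/- and 16.4 in Il18+/+. These readings do not settle which tissue was used. Il18 itself read -0.11 in Il18-/- and 1.38 in Il18+/+, a difference of -1.49, and the place of its probe relative to the deleted part is not known here.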

How the data were processed

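RNA pools of 7 mice per genotype were read on 1 Agilent one-colour array each. The deposited scanner files hold spot intensity values, which per the file headers Feature Extraction 10.10.1.1 had background-subtracted and detrended. Levels are log2 of the processed intensity minus the 75th percentile of the array (intensities of 707 in Il18-/- and 692 in Il18+/+) over its non-control spots without outlier flags. Differences were taken over the 59046 non-control spots without an outlier flag on either array. Of 62976 spots, 3671 were controls. Spots of a probe were averaged, and a gene's difference is the mean over its probes well above background on both arrays, which were 65.4% of probes in Il18-/- and 67.2% in Il18+/+ counted by array. Of 55675 probes, 27234 were named by 1 symbol through RefSeq's GRCm38.p6 table, 0 by several, and 28441 were unnamed. A gene measured on 1 array only is given as a bound against the lowest intensity well above background on the other array or the probe's own, whichever was higher. Neighbours were found from the recorded spot positions.

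The authors' deposited value table held linear intensity values with medians of 139 in Il18-/- and 152 in Il18+/+. They were the processed intensities multiplied by a constant of 1.92 in Il18-/- and 2.05 in Il18+/+, so neither scale, centring nor direction is left unknown. Alternatives used limma 3.58.1 in R 4.3.3. The scanner files used here hold no mean signal column, so normexp with an offset of 50 used the median signal. Python 3.11.15 with pandas 2.3.3 and scipy 1.17.1 did the rest, and the scripts were tested on simulated data.

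The genes and lists were chosen with earlier results of these data known. All 8 genes are named. The rule for naming genes of a list was up to 4 measured genes with the largest absolute difference and up to 2 measured on 1 array only. Many genes picked by that rule, such as those of the liver, choroid plexus and vomeronasal receptor lists, are not named here. Further genes are named for their role or their place on the chromosome and were chosen after their values were seen. Values of some single genes of the lists are not reported here.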

Additional observations from a re-analysis of the deposited data

Results flagged for a closer look

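Control spots outside the gene measurements differed between the arrays. The 8 spike-in probes, RNA added in a fixed amount before labelling, had a median difference of 0.30 (Il18-/- minus Il18+/+) after scaling, whereas all measured named genes had a median of 0.01. Probes without a gene symbol also differed. Of 14924 such probes measured on both arrays, 103 read higher in Il18-/- by 2-fold or more and 73 read lower by as much, and 39 of the 103 lay in patches of spots that differed the same way.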

How the results depend on the processing

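The count of 4 genes at least 1.5-fold different was between 3 and 5 under the alternatives run, with 3 at 2-fold and 3 without the Scgb1c1 probe, and 5 of 8 with no filter on dim probes. The median difference of the 6 measured genes was 2.35, and it moved to 2.05 with spike-in scaling, 1.49 with normexp, 1.69 with no background subtraction and 0.97 without the Scgb1c1 probe, an alternative chosen after seeing the data. The median of 118 other genes of the olfactory and family lists was 0.00, and -0.30 with spike-in scaling. Odorant and vomeronasal receptor genes were not among the 118. Spike-in scaling shifted all genes by -0.30, turned the sign of small list medians and took Ugt2a1, Muc5b and Nhlh2 under 1.5-fold. Of the 144 neighbours of the 8 probes, 8 (5.56%) were at least 2-fold different in the direction of the probe, 4 of them around Scgb1c1, against 3.41% over all spots, and the share was 4.69% with 8 nearest spots and 3.75% with 50. The background counts were less stable. Over all genes 265 were at least 1.5-fold higher and 405 lower, against 322 and 315 with median scaling, 314 and 321 with quantile normalization, 337 and 283 with loess, 129 and 1728 with spike-in scaling, 115 and 105 with normexp, 133 and 147 with no background subtraction, 221 and 550 in the authors' deposited table, and 814 and 1356 with no filter on dim probes. The cause of these shifts was not tested. No paired analysis was possible because each genotype has 1 array. Signal over background limits Stoml3, Bpifb3 and most receptor genes.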
